A study of Homo sapiens with 8 samples.

Results

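Transfer RNA (tRNA) genes outside chromosome 6 were followed by ATAC-seq in HEK293 cells put under hyperosmotic stress. The members are the 217 ATAC-seq peaks, of 129536 in the table, that lie on chromosomes 1 to 5, 7 to 22 or X and within 1 kb of either end of a gene that RefSeq annotates as a tRNA gene. They lie near 241 of the 275 nuclear tRNA genes on those chromosomes, and 186 of them overlap a tRNA gene. A peak is named here after its nearest tRNA gene: TR, the letter of the amino acid, the anticodon and the copy number, with X for the initiator methionine tRNA and U for selenocysteine. HEK293 is a line derived from human embryonic kidney cells, and the genotype label of all 8 libraries is eGFP-YAP, a fluorescent fusion of the Hippo pathway coactivator YAP. The design text names the same cells, but the library names contain wt, and what wt refers to is not given. How the fusion is expressed, and whether the line is 1 clone, is not given in the sources used here. The study's design has the cells serum-starved for 1 h. The 4 sorbitol libraries come from cells then given 0.2 M sorbitol, a sugar alcohol that draws water out of cells, for 1 h, and the 4 vehicle libraries from cells given vehicle. The count columns are labelled 0 h for vehicle and 1 h for sorbitol, and how long vehicle was given is not stated there. If the times differ, an effect of time cannot be told apart from one of sorbitol. Each library was made from 50000 cells. ATAC-seq inserts sequencing adapters into open DNA with a transposase, so that the count in a peak measures how accessible the chromatin is. The labels do not say that the libraries of a group came from separate cultures, so the p-values below measure only the spread between these libraries, which may be technical.

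tRNA genes are short genes transcribed by RNA polymerase III. Their promoter lies inside the gene, in an A box and a B box that are bound by the factor TFIIIC, which brings in TFIIIB and then the polymerase. Human tRNA genes occur in many copies, often in clusters, and not all copies are used in a given cell type; those in use lie in small stretches of open chromatin free of nucleosomes. MAF1 is the general repressor of the polymerase and acts when growth conditions worsen.

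The search of RefSeq's promoter windows (GRCh38.p14) for whole tRNA genes did not cover every chromosome that holds members. On the chromosomes searched, the windows of neighbouring genes contain 8 whole tRNA genes that have a member peak within 1 kb. The sequences below are the 6 of them whose peaks are described further on, TRN-GTT6-1 and TRT-TGT6-1 being left out, and they are shown because they let copies with equal sequence be compared between loci. They are read from 5′ to 3′ in the direction given by the B box, with T for U. The first capitals mark the anticodon and the second the core of the B box, searched as GTTCNANNC on both strands. That motif occurs in 7.48% of the 35116 promoter windows, tRNA genes within them included, and a match is a description of the letters. TRP-TGG3-2 (chr14:20684016-20684087) and TRP-TGG3-5 (chr16:3188094-3188165) read a proline codon and differ at 0 of 72 bases. TRH-GTG1-9 (chr15:45201151-45201222) reads a histidine codon and differs at 0 of 72 bases from TRH-GTG1-3 on chromosome 1, which has no peak within 1 kb. TRF-GAA1-5 (chr13:94549650-94549722) carries phenylalanine, TRR-ACG2-1 (chr3:45688999-45689071) arginine and TRG-CCC2-2 (chr16:636736-636806) glycine.
TRP-TGG3-2: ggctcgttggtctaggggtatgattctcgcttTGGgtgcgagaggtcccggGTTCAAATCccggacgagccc
TRP-TGG3-5: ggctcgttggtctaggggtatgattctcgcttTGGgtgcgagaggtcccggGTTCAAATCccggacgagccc
TRH-GTG1-9: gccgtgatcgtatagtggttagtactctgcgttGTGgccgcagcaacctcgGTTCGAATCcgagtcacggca
TRF-GAA1-5: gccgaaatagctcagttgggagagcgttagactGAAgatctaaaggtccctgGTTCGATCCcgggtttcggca
TRR-ACG2-1: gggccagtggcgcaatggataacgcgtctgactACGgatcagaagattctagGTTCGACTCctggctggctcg
TRG-CCC2-2: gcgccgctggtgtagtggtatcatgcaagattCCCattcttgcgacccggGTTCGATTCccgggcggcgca

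Over the series as a whole, the libraries held 11522266 to 19831471 counts in peaks, with every vehicle library above every sorbitol library. Pairs of libraries correlated at 0.944 to 0.964 within and 0.904 to 0.921 between groups over log2 values of all peaks, and none held equal values. The libraries numbered 4 stood apart in the stronger contig peaks, those outside the assembled chromosomes with 50 counts or more on average: the median log2 deviation there from the mean of all libraries was 0.35 in vehicle library 4, against -0.30 to -0.07 in the other vehicle libraries, and -0.32 in sorbitol library 4, against 0.08 to 0.30 in the other sorbitol libraries. Results below are therefore also given without both of them where they moved. Markers of the line gave peaks at 5 genes, VIM the strongest at 95.5 counts per 1000000 counts in the peaks of a library (CPM), with LHX1, NEFL, NEFM and KRT18, and none at PAX2 or PAX8. Markers of blood, endothelium, liver and fibroblasts gave peaks at 4 genes, between 1.16 and 6.32 CPM, of which 0 were lower and 2 higher, and none at CD3E, CDH5 or ALB. Their part in the results was not tested.

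The tRNA gene peaks were among the strong peaks of these cells. Their mean CPM over both groups had a median of 25.1, with a range from 1.15 to 264.7, against 3.02 for all peaks. Of the 217, 134 lay in the strongest 10% of all tested peaks. Their median width was 983 bp, with a range from 200 to 2733 bp, against 400 bp for all peaks. The members lie on 19 chromosomes, in 131 loci when tRNA genes within 10 kb of each other are joined, and 64 of them have 2 to 4 tRNA genes within 1 kb. Reads in near-identical copies can be shared out between loci or lost by mapping, so the counts of such copies are uncertain.

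After 1 h of sorbitol, accessibility fell at most tRNA gene peaks. The share of all counts that lay in the 217 peaks was 0.937%, 0.945%, 0.881% and 0.841% in the vehicle libraries and 0.655%, 0.669%, 0.638% and 0.662% in the sorbitol libraries. The lowest vehicle library was thus above the highest sorbitol library, and the means were 0.901% ± 0.0491 (SD, n = 4) and 0.656% ± 0.0132 (SD, n = 4). In edgeR's quasi-likelihood test with Benjamini-Hochberg adjustment over all 129487 tested peaks, 172 of the 217 were lower at an adjusted p under 0.05 (79.3%), where 13.1% of all tested peaks were lower. Another 3 were higher, where 16.0% of all tested peaks were higher, and 42 did not pass. All 217 had passed the filter on low counts. The median log2 fold change, sorbitol minus vehicle, was -0.53 for the tRNA gene peaks and 0.01 for all tested peaks, and 205 of the 217 lay below 0, against 48.9% of all.

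In 148 of the 217 peaks every sorbitol library was below every vehicle library, which was so in 9.47% of all tested peaks. The reverse held for 2, against 17.3% of all. A log2 fold change of -1 or below was reached by 11 of the called peaks, against 0.881% of all tested peaks. Of these, 8 lie on chromosome 16 or 17 and 9 have another tRNA gene within 10 kb. Such a fall was not particular to the members. It was called at 31 of 91 peaks of small nuclear RNA genes other than U6 and 11 of 167 peaks 1 to 10 kb from these tRNA genes. At tRNA genes of chromosome 6 it was 2 of 142, and at U6 genes 0 of 6.

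The size of these values and the number of calls depend on which peaks set the scale between libraries, since an ATAC-seq library has no external standard. With scaling factors from the peaks within 1 kb of any gene end, 148 tRNA gene peaks were lower, 5 were higher and the median was -0.36, while the median of all peaks moved from 0.01 to 0.19. With factors from the contig peaks, 84 were lower and 2 higher, while the median, at -0.59, was not smaller in size. Without both libraries numbered 4 and with the usual factors, 183 were lower and 2 higher. The calls over all tested peaks moved too. With the gene-boundary factors 6.7% of them were lower and 26.3% higher, and with the contig factors 4.04% and 7.04%. Without both libraries numbered 4 it was 13.8% and 15.3%. Peaks at gene ends as a whole held 51.7% ± 0.858 of counts in the vehicle group and 47.8% ± 1.28 in the sorbitol group (SD, n = 4 each) and had a median log2 fold change of -0.17.

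**Figure D1:**
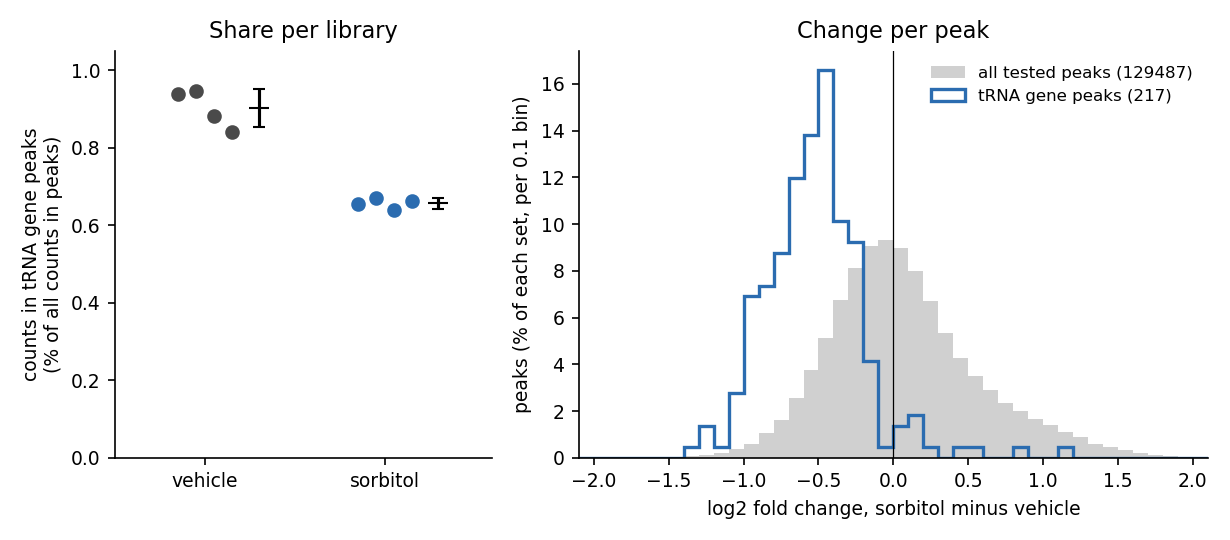
Left, the percent of each library's counts that lie in the 217 tRNA gene peaks, 1 point per library, with the mean and SD of each group of 4; right, the distribution of log2 fold changes in bins of 0.1 for tRNA gene peaks (line) and all 129487 tested peaks (filled), as the percent of each set, with values beyond the axis not drawn. The 4 sorbitol libraries sit between 0.638% and 0.669%, below all vehicle libraries, and the line lies mostly left of 0.

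The 10 lower peaks with the smallest p lie on 6 chromosomes, and 9 of them have 2 to 4 tRNA genes within 1 kb. The first is on chromosome 17 (8226051 to 8227161, GRCh38), inside CTC1, a gene of the complex that helps replicate telomeres, and spans TRS-AGA2-6 (serine), TRT-AGT1-2 (threonine) and TRI-AAT4-1 (isoleucine). It had 43.6, 39.0, 32.6 and 33.4 CPM in the vehicle libraries and 13.5, 17.04, 14.7 and 14.3 CPM in the sorbitol libraries. The groups were far apart, and the log2 fold change was -1.40 (SE 0.10; adjusted p = 6.53e-16, edgeR).

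The peak of TRA-TGC4-1 (alanine) and TRD-GTC2-10 (aspartate) on chromosome 12 was stronger, with 141, 138, 131 and 122 CPM in vehicle and 72.4, 69.9, 69.6 and 69.4 CPM in sorbitol. All 4 sorbitol libraries were close to each other and far below vehicle, at a log2 fold change of -1.002 (SE 0.08; adjusted p = 3.12e-15, edgeR). Leucine tRNA genes gave 4 of the 10. TRL-AAG1-1 on chromosome 5 fell from 62.8 ± 6.93 to 30.4 ± 1.92 CPM (SD, n = 4 each), at -1.13. TRL-CAG2-1 on chromosome 16 fell from 119 ± 8.92 to 63.7 ± 3.37 CPM, at -0.99. TRL-AAG1-3, a second copy of the first on chromosome 5, fell from 64.9 ± 5.48 to 34.8 ± 2.69 CPM, at -0.98. In each of them the vehicle and sorbitol libraries did not overlap.

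The fourth leucine peak, of TRL-TAG1-1 with 3 more tRNA genes, lies on chromosome 17 near the ends of ALOXE3, which codes for a lipoxygenase of the skin, and HES7, a repressor of the segmentation clock. It fell from 53.5 ± 6.25 to 26.6 ± 2.23 CPM, at -1.10. The other four of the 10 were TRA-AGC8-1 with TRY-GTA2-1 within AGBL5 on chromosome 2 (-0.96), TRK-CTT4-1 with TRP-AGG1-1 within OR1F1 (-1.30) and TRR-CCT3-1 (-1.25) on chromosome 16, and TRT-TGT3-1 with TRP-AGG2-6 on chromosome 14 (-0.96). Among them TRK-CTT4-1 went from 26.7, 28.4, 26.0 and 26.5 CPM in vehicle to 11.3, 14.1, 9.28 and 11.6 CPM in sorbitol. In these peaks too each sorbitol library was below each vehicle library. Since CPM is not adjusted by the scaling factors of the test, the median fitted change of all peaks lies below that of plain CPM, by -0.08.

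All 22 classes of tRNA gene by amino acid had a peak, and each class had a median log2 fold change below 0. All peaks were lower for serine (7 of 7, median -0.73), threonine (9 of 9, -0.58), tyrosine (5 of 5, -0.58), aspartate (5 of 5, -0.48) and elongator methionine (3 of 3, -0.61). Among the larger classes, leucine had 17 of 20 lower (median -0.66), lysine 14 of 18 with 1 higher (-0.68), proline 12 of 14 (-0.60), arginine 12 of 14 (-0.57), valine 15 of 19 (-0.51), asparagine 15 of 20 with 1 higher (-0.49) and glycine 18 of 22 (-0.43). Cysteine had the lowest share of the 22 classes, with 10 of 22 lower and 1 higher, at a median of -0.43.

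The initiator methionine tRNA starts every protein chain, and both of its genes outside chromosome 6 have a peak. TRX-CAT1-8 on chromosome 17 had 54.4, 51.4, 50.2 and 51.9 CPM in vehicle and 31.2, 26.3, 32.5 and 26.9 CPM in sorbitol. It fell well beyond the spread of either group, at a log2 fold change of -0.91 (SE 0.08; adjusted p = 3.74e-12, edgeR). TRX-CAT1-1 on chromosome 1, beside ILF2, which codes for an RNA-binding nuclear factor, had 66.8, 76.7, 58.8 and 64.5 CPM in vehicle and 47.6, 42.2, 47.3 and 41.0 CPM in sorbitol, a change of -0.67 (SE 0.08; adjusted p = 2.12e-08, edgeR). Here the groups were closer but did not overlap.

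The selenocysteine tRNA inserts selenium into a small set of enzymes at a recoded stop codon. Its gene TRU-TCA1-1 on chromosome 19 had 29.6, 28.2, 24.6 and 21.5 CPM in vehicle and 19.1, 19.8, 20.2 and 19.7 CPM in sorbitol. The sorbitol libraries were nearly equal and below all vehicle libraries, at -0.48 (SE 0.10; adjusted p = 0.000165, edgeR). The other selenocysteine gene, TRU-TCA2-1 on chromosome 22, had no peak within 1 kb.

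**Figure D2:**
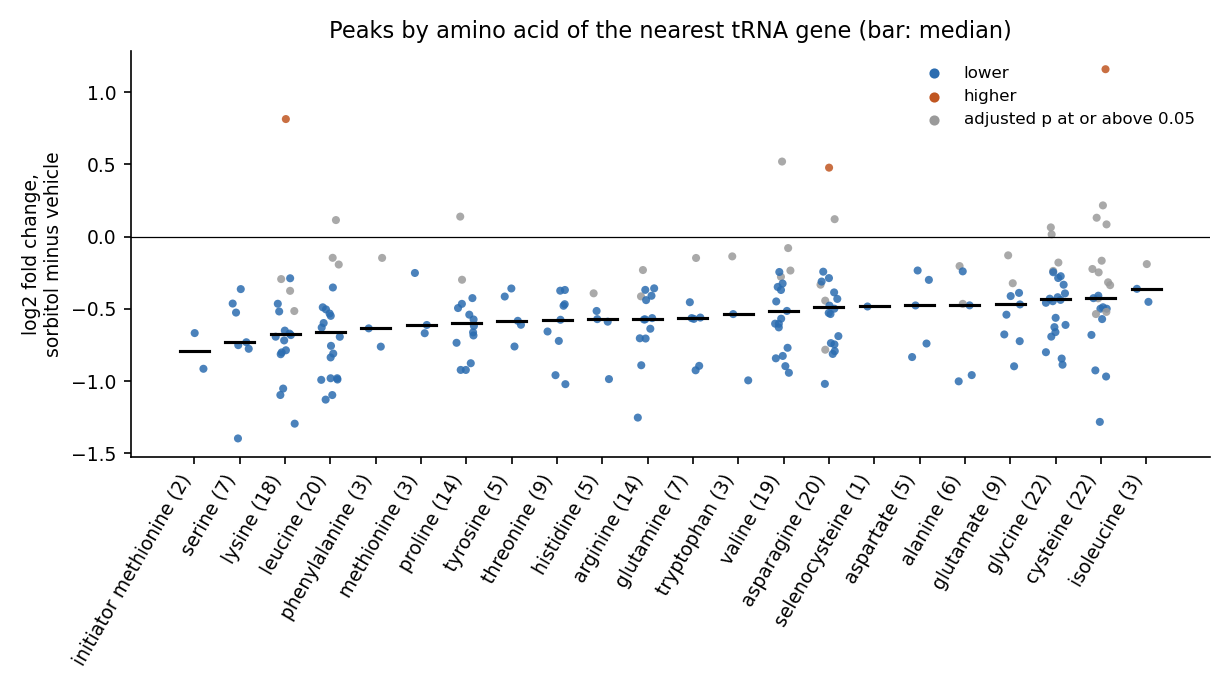
Log2 fold change of each of the 217 peaks by the amino acid of its nearest tRNA gene, with the number of peaks in brackets and a bar at the median; blue points were lower and orange points higher at an adjusted p under 0.05, and grey points did not pass. Every class has its median below 0, and cysteine holds 11 of the 42 grey points.

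The cysteine count splits by chromosome. A run of 18 TRC-GCA genes lies on chromosome 7 between 149310190 and 149707740. Of these genes, 9 had no peak within 1 kb. The 10 peaks of the others were mostly weak for tRNA gene peaks, with a median of 3.44 CPM and a highest of 40.1 CPM. None of these 10 was lower and 1 was higher, and the 9 that did not pass ranged from -0.54 to 0.22. The strongest of them, TRC-GCA17-1, had 38.9, 45.2, 42.0 and 38.7 CPM in vehicle and 38.5, 35.2, 43.4 and 38.6 CPM in sorbitol. Those values overlapped, at a log2 fold change of -0.17 (SE 0.08; adjusted p = 0.138, edgeR). On the other chromosomes 10 of 12 cysteine peaks were lower, at a median of -0.50 and a median strength of 5.60 CPM. The difference between the 2 sets of cysteine peaks was not tested, and the sets were set apart after their values were seen.

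Chromosome 7 also held 2 peaks of other amino acids, and both were lower. TRP-AGG2-3 (proline) fell from 19.6 ± 0.439 to 10.9 ± 1.07 CPM (SD, n = 4 each), at -0.92, and TRR-CCT4-1 (arginine), inside FMC1 and LUC7L2, fell from 122 ± 7.71 to 100 ± 5.14 CPM, at -0.37. Chromosome 13 had 1 of 4 peaks lower, and chromosome 3 had 2 of 5. The highest shares among chromosomes with 10 or more peaks were on chromosome 15 (10 of 10 lower, median -0.63), 11 (9 of 10, -0.74), 17 (22 of 25, -0.61) and 16 (20 of 23, -0.71). Chromosome 1, with the most members, had 53 of 67 lower and 1 higher, at -0.49.

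Clustered tRNA genes, those with another tRNA gene within 10 kb, had 116 peaks, of which 103 were lower and 0 higher, at a median of -0.60. The 101 peaks of isolated genes had 69 lower and 3 higher, at -0.46. Among peaks that overlap the tRNA gene itself the counts were 95 of 100 for clustered and 64 of 86 for isolated genes, with median strengths of 27.7 and 30.0 CPM. By the number of tRNA genes within 1 kb, the median was -0.49 for 153 peaks with 1 tRNA gene, -0.69 for 46 peaks with 2 and -0.62 for 18 with 3 or 4. Of the clustered peaks with 1 tRNA gene, 42 of 52 were lower, at -0.54. By the number of copies that share the name of the tRNA, the medians were closer to each other, at -0.52 for 1 copy, -0.56 for 2 to 4 and -0.52 for 5 or more.

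**Figure D3:**
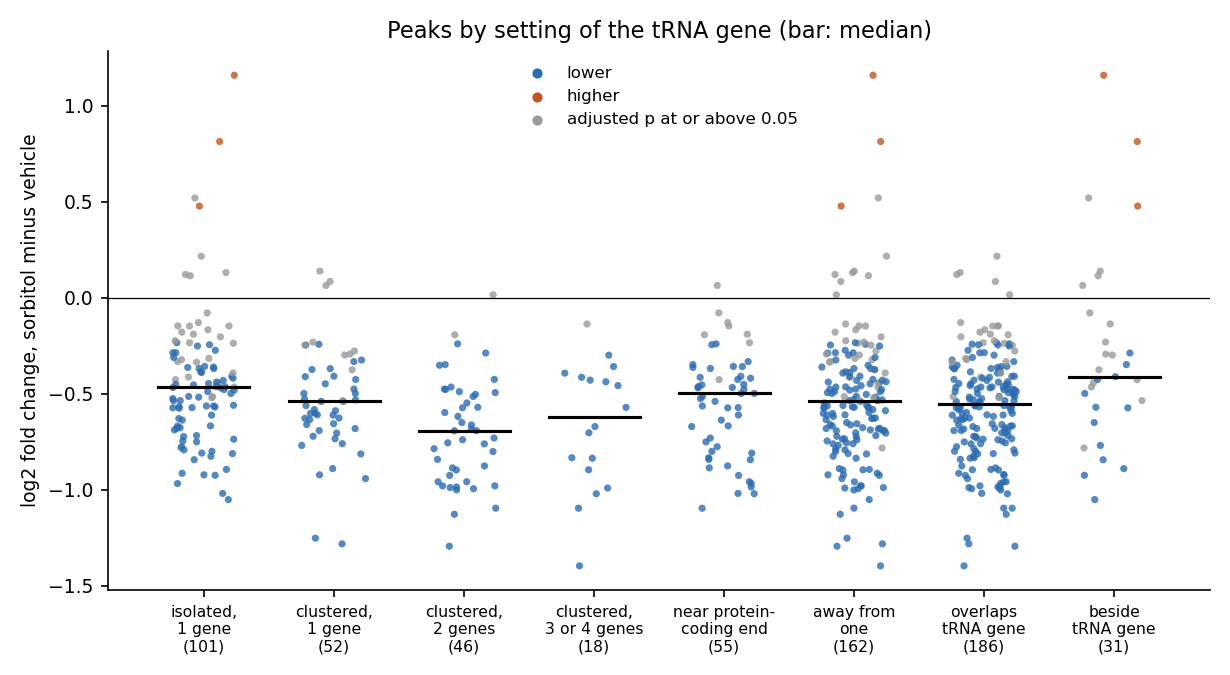
Log2 fold change of the 217 peaks by the setting of the nearest tRNA gene (another tRNA gene within 10 kb or none, with the number of tRNA genes within 1 kb; a protein-coding gene end within 1 kb or none; overlapping the tRNA gene or beside it), with the number of peaks in brackets, a bar at the median and colours by call. The medians run from -0.41 beside the tRNA gene to -0.69 for clustered peaks with 2 tRNA genes, and the 3 higher peaks are isolated and lie beside their tRNA gene.

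The largest cluster lies on chromosome 1 from 161440171 to 161480636 and holds 24 tRNA genes for glycine, aspartate, leucine and glutamate. All 14 of its peaks were lower, at a median of -0.53. It contains the 4 strongest tRNA gene peaks of all, each at a TRG-TCC2 gene with TRD-GTC2, TRE-CTC1 and TRL-CAG1 genes within 1 kb, and each 7.33 to 7.45 kb from the next. The strongest, at TRG-TCC2-3, had 284, 288, 294 and 307 CPM in vehicle and 235, 242, 226 and 241 CPM in sorbitol. The groups did not overlap although the fold was small, at -0.39 (SE 0.07; adjusted p = 1.28e-05, edgeR), and over the 4 such peaks it ran from -0.46 to -0.39. Among the weaker peaks of the cluster, the 4 TRG-GCC1 peaks ran from -0.69 to -0.56 and the 5 TRL-CAG1 peaks from -0.69 to -0.49, both below the range of the strong ones, while the peak of TRD-GTC2-1, at 49.4 CPM, was at -0.30. By their names the TRG-TCC2 genes are copies of 1 sequence, and how reads that map to several copies were treated is not given in the sources used here.

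The cluster on chromosome 16 from 3150674 to 3192060 has 14 tRNA genes for proline, lysine and arginine, and 13 of its 14 peaks were lower, at a median of -0.77. The peak that did not pass, at TRK-CTT8-1, had 7.77 ± 1.02 CPM in vehicle and 6.37 ± 1.44 in sorbitol (SD, n = 4 each; adjusted p = 0.0529, edgeR). Here lies TRP-TGG3-5, the proline gene printed above, which has 2 member peaks within 1 kb. A peak named after it fell from 18.7 ± 3.04 to 13.7 ± 1.70 CPM, at -0.54, and only this peak is compared here. The peak that holds the identical TRP-TGG3-2 on chromosome 14 fell from 103 ± 6.38 to 82.1 ± 2.93 CPM, at -0.41. The peaks given for the 2 copies thus differ in strength. That of TRP-TGG3-2 also spans TRY-GTA5-5 (tyrosine) and the shared start of ANG and RNASE4, a pair of ribonuclease genes. ANG codes for angiogenin, an enzyme that cuts tRNAs.

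**Figure D4:**
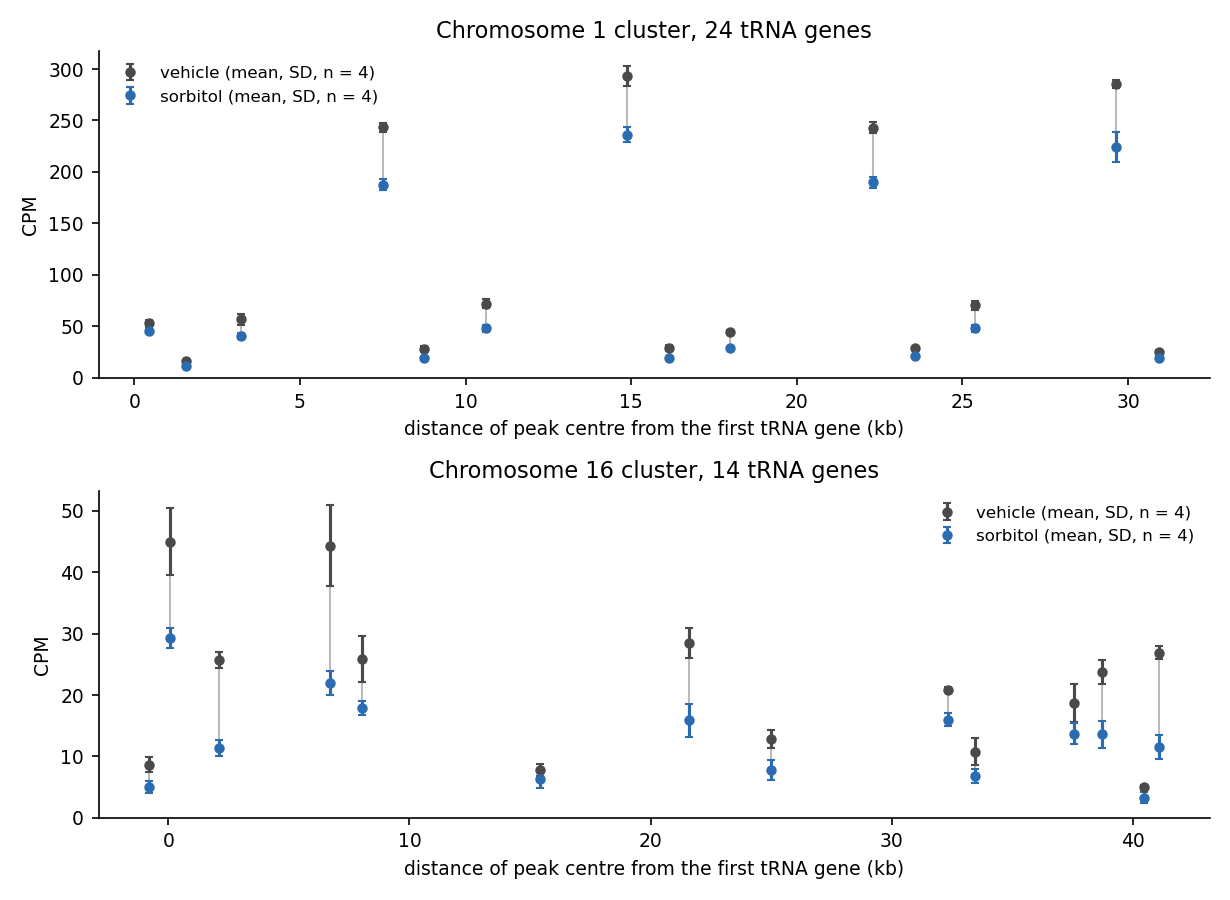
CPM of each peak (mean and SD of 4 libraries) in vehicle (dark) and sorbitol (blue) along the 2 clusters with the most tRNA genes, against the distance of the peak centre from the first tRNA gene of the cluster in kb. All 14 peaks of the chromosome 1 cluster and 13 of the 14 of the chromosome 16 cluster were called lower, and the 4 tall peaks of the upper panel are the TRG-TCC2 genes.

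On chromosome 11 a cluster of 8 tRNA genes from 59550629 to 59566452 had 6 of 7 peaks lower, at a median of -0.76. Its strongest peak, at TRV-TAC1-1 (valine), fell from 93.6 ± 6.28 to 53.2 ± 4.20 CPM (SD, n = 4 each), at -0.90. Of the 5 clusters with the most tRNA genes, 2 lie on chromosome 17, close to each other and with smaller clusters between them. The one from 8220869 to 8227064, with 7 tRNA genes for 7 amino acids, had 3 of 3 peaks lower, at -0.995, and includes the TRS-AGA2-6 peak described first. The one from 8119155 to 8125816, with 5 tRNA genes, had 3 of 5 lower, at -0.61. Its 2 peaks that did not pass lie beside a tRNA gene, and that of TRG-GCC2-6 over the HES7 end had 14.5 ± 1.16 CPM in vehicle and 16.02 ± 1.66 in sorbitol.

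A protein-coding gene end lay within 1 kb of 55 of the peaks, and 47 of them were lower, at a median of -0.50. The other 162 had 125 lower and 3 higher, at -0.54. Of peaks at protein-coding gene ends without a tRNA gene, 39.5% of 16567 tested were lower, at a median of -0.20. The tRNA gene peaks with and without a protein-coding neighbour thus had close medians, and neither set was tested against the peaks without a tRNA gene.

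POLR3E, which codes for a subunit of RNA polymerase III, shares its start with a leucine tRNA gene, TRL-AAG2-4 (chr16:22297140-22297221). The bases below are the first part of RefSeq's promoter window of POLR3E (chr16:22297159-22297308, plus strand, GRCh38.p14), with the part of the tRNA gene that falls in the window in capitals, and are shown because the polymerase's gene and a template of the polymerase lie in 1 peak.
POLR3E: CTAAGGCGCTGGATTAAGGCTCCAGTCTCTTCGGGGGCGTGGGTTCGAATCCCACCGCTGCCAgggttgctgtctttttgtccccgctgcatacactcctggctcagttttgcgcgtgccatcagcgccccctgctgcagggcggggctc
This peak had 79.9, 82.7, 68.5 and 67.3 CPM in vehicle and 44.8, 47.9, 42.7 and 44.9 CPM in sorbitol. All sorbitol libraries were far below vehicle, at a log2 fold change of -0.81 (SE 0.08; adjusted p = 8.82e-11, edgeR).

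Other shared ends differed in size. TRR-ACG2-1, printed above, lies beside SACM1L, a phosphoinositide phosphatase gene, in a peak that fell from 96.0 ± 2.92 to 65.3 ± 4.94 CPM (SD, n = 4 each), at -0.64. TRR-TCG1-1 lies beside POLG, which codes for the DNA polymerase of mitochondria, and fell from 110 ± 6.30 to 87.4 ± 7.63 CPM, at -0.41. TRG-CCC2-1 lies beside TIA1, a gene for a stress granule protein, and fell from 35.5 ± 3.96 to 28.1 ± 0.645 CPM, at -0.42. Its sister TRG-CCC2-2, printed above and beside METTL26, fell from 31.8 ± 3.07 to 19.3 ± 3.02 CPM, at -0.80. At the end of SHF, an adaptor protein gene, 2 histidine tRNA genes lie in 2 neighbouring peaks: that of TRH-GTG1-9, printed above, fell from 13.4 ± 3.15 to 7.21 ± 1.44 CPM, at -0.99, and that of TRH-GTG1-8 from 28.9 ± 2.14 to 21.5 ± 2.98 CPM, at -0.51. These shared ends were chosen for their genes or sequences after the values were known.

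Of the 42 peaks that did not pass, 33 had a log2 fold change below 0, 15 had an unadjusted p under 0.05 and 27 had a mean under 10 CPM. Of the 167 peaks with a mean of 10 CPM or more, 152 were lower. The strongest that did not pass was TRF-GAA1-5 on chromosome 13, the phenylalanine gene printed above, near DCT, a gene of pigment synthesis. It had 158, 163, 166 and 151 CPM in vehicle and 141, 151, 153 and 164 CPM in sorbitol. These libraries overlapped, at -0.15 (SE 0.07; adjusted p = 0.124, edgeR). The next in strength were TRE-TTC1-2 on chromosome 13, near ELF1 and WBP4 (-0.13), TRL-CAA4-1 within PGBD2 (-0.19) and TRL-CAA6-1 (-0.15) on chromosome 1, and TRV-AAC1-1 near MYNN on chromosome 3 (-0.08), which does not overlap its tRNA gene. The signs of these 5 and of TRC-GCA17-1 turned with factors from gene-boundary peaks or an intensity-dependent offset, and none of them was called either way.

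The 3 higher peaks were weaker than the median tRNA gene peak (25.1 CPM), belonged to isolated genes and did not overlap a tRNA gene. The peak beside TRK-TTT8-1 (lysine) on chromosome 1 had 1.77, 1.95, 2.47 and 2.24 CPM in vehicle and 3.73, 3.82, 4.51 and 3.76 CPM in sorbitol. Its groups did not overlap, at 0.81 (SE 0.21; adjusted p = 0.00219, edgeR). The peak beside TRN-GTT2-3 (asparagine) on chromosome 10 rose from 6.09 ± 0.747 to 8.96 ± 0.449 CPM (SD, n = 4 each), at 0.48 (adjusted p = 0.00667, edgeR), while the peak over the gene itself fell from 32.9 ± 3.22 to 28.1 ± 1.92 CPM, at -0.31 (adjusted p = 0.00683, edgeR). The third, beside TRC-GCA9-2 on chromosome 7, had 1.12, 0.402, 0.807 and 0.407 CPM in vehicle and 0.955, 1.99, 1.47 and 2.02 CPM in sorbitol, and here the groups overlapped (log2 fold change 1.16, SE 0.35; adjusted p = 0.00935, edgeR). Without both libraries numbered 4 this last peak did not pass (adjusted p = 0.0962, edgeR).

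Stronger peaks were more often called, and peak strength also moved with the change over all peaks. In the strongest 10% of all tested peaks 123 of 134 tRNA gene peaks were lower (91.8%), where 43.6% of all peaks and 49.2% of gene-boundary peaks of that strength were lower. In the next 10% it was 33 of 40 (82.5%), against 27.4% and 41.1%. The medians of the tRNA gene peaks in those 2 bins were -0.56 and -0.57, those of all peaks -0.17 and -0.08.

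**Figure D5:**
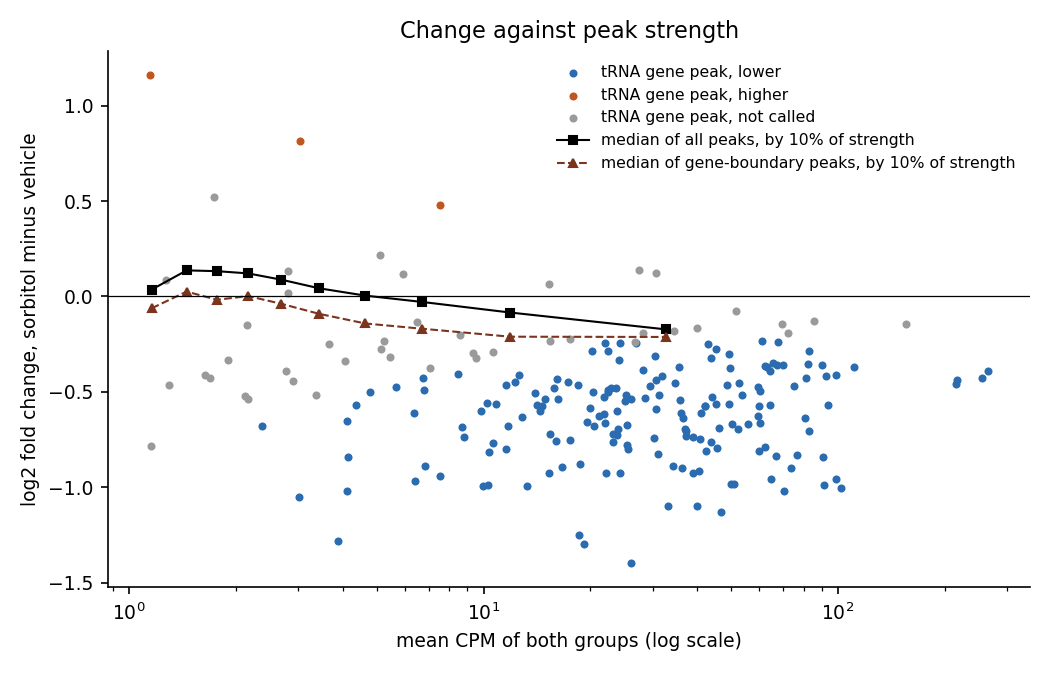
Log2 fold change of the 217 tRNA gene peaks against their mean CPM (log axis), coloured by call, with the median log2 fold change of all tested peaks (squares) and of gene-boundary peaks (triangles) in each 10% of peak strength. In the strongest 10% the line of all peaks is at -0.17 and the tRNA gene peaks have a median of -0.56.

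Fewer calls were made beside the tRNA genes. Of the 31 members that lie beside their tRNA gene, 13 were lower and 3 higher, at a median of -0.41 and a median strength of 6.75 CPM. Of 167 peaks at 1 to 10 kb from these tRNA genes 61 were lower and 7 higher, at a median of -0.26 and 6.02 CPM. At the border of the rule, the outermost members were 1000 bp (beside TRV-CAC1-7, log2 fold change 0.52) and 991 bp (TRA-AGC15-1, -0.47) away, and the nearest peaks outside it 1002 bp (beside TRN-GTT9-1, -0.29) and 1005 bp (TRH-GTG1-3, -0.73). The tRNA gene peaks on chromosome 6 had 97 of 142 lower and 1 higher, at -0.39. Peaks at U6 small nuclear RNA genes, which RNA polymerase III also transcribes, had 4 of 6 lower, at -0.31, and those at other small nuclear RNA genes 76 of 91 lower and 4 higher, at -0.77. U6 genes were taken by names that start with RNU6-, and the second set holds all other small nuclear RNA genes, whichever polymerase transcribes them. No test was made between the sets of this paragraph, whose members differ in strength.

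Of the 34 tRNA genes with no peak within 1 kb, 25 are isolated, of 113 isolated genes, and 9 are clustered, of 162. By family, 10 of 29 cysteine genes, 4 of 21 asparagine, 4 of 21 lysine, 3 of 8 histidine and 3 of 8 isoleucine genes had none. All 3 of the missing isoleucine genes, TRI-GAT1-1 to TRI-GAT1-3, lie on chromosome X. All genes for alanine, arginine, aspartate, glutamate, phenylalanine, proline, threonine, valine and both forms of methionine had a peak.

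The genes that make and use tRNAs were read from the peaks at their own ends. Over 4 lists of 86 genes, 76 of 120 peaks were lower and 4 higher, at a median of -0.35, where 32.8% of all gene-boundary peaks were lower and 8.75% higher. The list peaks were stronger, at a median of 26.9 CPM against 11.2 CPM for all gene-boundary peaks. In the strongest 10% of all tested peaks 49.2% of gene-boundary peaks were lower. The share was 63.3% over the 4 lists and, close to that of strong gene-boundary peaks, 51.2% for tRNA processing, export and modification. RNA polymerase III subunits had 16 of 26 lower and 0 higher (-0.41), the TRL-AAG2-4 peak at POLR3E included. The initiation factors, MAF1 and the La protein had 20 of 23 lower and 0 higher (-0.38), tRNA processing, export and modification 21 of 41 lower and 3 higher (-0.28), and the cytosolic aminoacyl-tRNA synthetases, which load tRNAs with amino acids, 19 of 30 lower and 1 higher (-0.36). With factors from contig peaks 23 of the 120 were lower, where 4.04% of all tested peaks were lower (13.1% with the usual factors). The share of gene-boundary peaks that were lower with contig factors is not given here.

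Within these lists, GTF3C2, which codes for a subunit of TFIIIC, fell from 59.3 ± 3.74 to 34.995 ± 3.31 CPM (SD, n = 4 each), at -0.85 (adjusted p = 3.93e-11, edgeR). SNAPC4, a subunit of the complex for small nuclear RNA promoters, fell from 8.04 ± 0.620 to 4.17 ± 0.717 CPM, at -1.02. ADAT3, part of the enzyme that makes inosine in anticodons, fell from 23.8 ± 2.46 to 13.9 ± 0.483 CPM, at -0.85. AARS1, the alanine synthetase gene, fell at 2 peaks, the stronger from 34.7 ± 2.33 to 21.6 ± 2.16 CPM, at -0.77, and the weaker at -1.01. POLR3A, the largest subunit of the polymerase, had a weak peak that fell from 2.95 ± 0.589 to 1.43 ± 0.446 CPM, at -1.13, and a second weak peak at the other end of POLR3E fell by 1.12 on the log2 scale. Which end of POLR3A its peak lies at is not shown here. The list peaks named had the smallest p of their list or were called and changed at least 2-fold. Other peaks of the same genes may differ.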

How the data were processed

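ATAC-seq was analysed in 4 vehicle and 4 sorbitol libraries. The deposited table gives whole-number counts per peak and library for 129536 peaks; whether a count is a read or a read pair is not given in the sources used here, and how peaks were merged is not either. Per the submitters' processing notes the tools include Trim Galore 0.6.10, BWA 0.7.17, SAMtools 1.22, Picard, MACS2 2.2.9.1 and DESeq2, and the build is GRCh38; their treatment of reads that map to several places and any shift for the transposase are not given. Paired reads of 75 bp were sequenced, per the labels' protocols.

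From these counts, peaks were matched to genes of RefSeq (GRCh38.p14) on primary chromosome sequences. All peaks were fitted in edgeR 4.0.16 (R 4.3.3) with a quasi-likelihood test, TMM factors and filterByExpr (minimum count 10, minimum total 15), with Benjamini-Hochberg adjustment over 129487 peaks. Printed CPM are counts per 1000000 of the library's counts in peaks. Each printed SE was derived as the absolute log2 fold change divided by the square root of the test's F value. The edgeR test does not itself report an SE. The fit was also run on simulated counts with a constant dispersion and few changed peaks, balanced in direction. That setting is unlike these data, so the run does not show how accurate the calls here are. Alternatives were DESeq2 1.42.0, other scaling, filters, distances and left-out libraries. The labels do not say whether equal replicate numbers pair the libraries. Correlations of deviations between equally numbered libraries ran from -0.129 to 0.00665, and the main fit left the libraries unpaired. The members and gene lists were chosen with earlier results of these data known. Peaks named were the 10 lower with the smallest p, all higher, the strongest, the strongest uncalled, those of selenocysteine and initiator methionine, and those of the 5 largest clusters; the strongest of each amino acid is summarised in its class, and other names were chosen after their values were seen. The Hi-C, RNA-seq and CUT&Tag data of the study were not used here. Some marker genes are not reported here.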

Additional observations from a re-analysis of the deposited data

Results flagged for a closer look

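Over the 74 named peaks and the share of counts in tRNA gene peaks, 5 of 150 groups of 4 libraries had 1 library far from the other 3, where chance would give about 7.5. In the sorbitol group TRG-TCC2-4 had 197.5 CPM in library 2, against 186.8 to 188.5 in the others, and TRA-TGC4-1 had 72.4 CPM in library 1, against 69.4 to 69.9. The peak of TRI-TAT2-1 had 70.2 CPM in sorbitol library 4, against 59.7 to 61.5, and the peak beside TRK-TTT8-1 had 4.51 CPM in library 3, against 3.73 to 3.82. In the peak of TRD-GTC2-11 sorbitol library 3 was the lowest, at 51.9 CPM, against 58.2 to 58.9.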

How the results depend on the processing

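The 172 lower tRNA gene peaks numbered 148 to 183 under the other tools, scalings, filters, distances and left-out libraries tried, and 156 at an adjusted p under 0.01, except for factors from contig peaks, which gave 84 at a median of -0.59 (clustered -0.66, isolated -0.51); the cause was not tested. All peaks called numbered 37715, 14352 with contig factors, 21385 with a mean of at least 50 counts and 23275 at 0.01, the latter 2 by construction. Leaving out 1 library gave 30554 to 38650 called, 159 to 181 lower and 3 higher tRNA gene peaks, and medians from -0.57 to -0.49. The 3 higher were 5 with gene-boundary factors, 5 with an intensity-dependent (loess) offset, 1 within 500 bp and 0 among peaks over the tRNA gene. No member was called in opposite directions, and 84 were lower under every refit of the counts in which they were tested. With the replicate number as a block, 34445 peaks were called, 171 tRNA gene peaks were lower and 3 higher. With the first number in the library names as a block, 37353 peaks were called, 171 tRNA gene peaks were lower and 3 higher. What that number stands for is not given in the sources used here.

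Medians moved with the scaling. With gene-boundary factors, library totals, the loess offset and the 50-count filter, that of the tRNA gene peaks was -0.36, -0.45, -0.42 and -0.46, of clustered ones -0.43, -0.52, -0.47 and -0.52, of isolated ones -0.29, -0.38, -0.35 and -0.38, and of those near a protein-coding end -0.32, -0.42, -0.36 and -0.41. Away from such ends gene-boundary factors, totals and loess gave -0.36, -0.45 and -0.43. Without both libraries numbered 4, chosen after seeing the data, isolated peaks had -0.53 and those near a protein-coding end -0.57. Of 120 gene-list peaks 76 were lower, and 23 with contig factors. The share of higher among called peaks was 54.9%, and 79.7% with gene-boundary factors and 67.4% with library totals.

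Of 74 named peaks, 42 kept sign and side in all 19 refits. Signs that turned, all uncalled, were TRL-CAA6-1 (0.031 with gene-boundary factors, 0.066 loess), TRL-CAA4-1 (0.019 loess), TRE-TTC1-2 (0.045, 0.089), TRF-GAA1-5 (0.028, 0.093), TRC-GCA17-1 (0.011, 0.017) and TRV-AAC1-1 (0.10, 0.12, 0.0031 with totals, 0.013 with the filter). A correction for GC content was not run. By depth, 27 of the 42 uncalled peaks had a mean under 10 CPM and 15 had more; what part depth has in the missing calls was not tested.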
